A study of Saccharomyces cerevisiae with 14 samples.

Results

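The genes of ergosterol biosynthesis were followed in 6 groups of budding yeast (Saccharomyces cerevisiae) arrays. They are 30 genes among the 5449 yeast genes that the arrays could name. They were taken by name for their known place in the sterol pathway, with earlier results of these data known. Each of the 30 is read by 1 probe set, and all 30 passed the filter on dim genes, which kept 5415 genes.

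The series asked which effects of the histone demethylase Jhd2 go through methylation of lysine 4 of histone H3 and which do not, by setting strains with an altered JHD2 gene beside a strain without Set1, the methyltransferase that places this mark. It holds 14 Affymetrix Yeast 2.0 arrays in 3 experiments, each an altered strain with a wild type of its own. The SET1 experiment had 2 arrays of a set1 deletion strain and 2 of its wild type (the SET1 wild type below). The jhd2 deletion experiment had 3 arrays of a jhd2 deletion strain and 3 of its wild type (the jhd2 wild type), and the overexpression experiment had 2 arrays of a JHD2 overexpression strain and 2 of its wild type (the overexpression wild type).

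The labels give the set1 deletion strain as set1::KanMx with the markers his3-1, leu2-0, met15-0 and ura3-0. They give the jhd2 deletion strain as jhd2::KanMX in a background with his3∆1 and le2∆0 besides lys2∆0 and ura3∆0. The overexpression strain is (jhd2∆::KanMx)+(JHD2 O/E) with his3-1, leu2-0, lys2-0 and ura3-0, so it carries the deletion cassette too, and what drives JHD2 in it is not stated in the labels. All 3 wild types carry one and the same label, again his3∆1 and le2∆0 besides lys2∆0 and ura3∆0, here with TRP+, Met15+ and ADE+. Every culture was diluted to an OD600 of 0.2, grown at 30 °C for 3 to 5 hours and collected at an OD600 of 0.6 to 0.7. The labels call the replicates biological and do not state the medium.

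Ergosterol is the main sterol of fungal membranes, as cholesterol is in animals. Its synthesis runs from acetyl-CoA through mevalonate to farnesyl diphosphate, from there through squalene to lanosterol, and then through a series of demethylation, reduction and desaturation steps in the endoplasmic reticulum. Several of these steps need molecular oxygen and heme. Transcription factors of the zinc cluster family tie the genes to sterol supply, and surplus sterol is stored as esters.

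The targeted genes matched their labels. SET1 gave 1.13 and 3.31 (signal, linear scale) in the set1 deletion, against 575.4 and 395.4 on the SET1 wild-type arrays. JHD2 had 3.22, 3.41 and 0.23 on the jhd2 deletion arrays, against 138.2, 118.8 and 139.8 on the jhd2 wild-type arrays. In the overexpression strain JHD2 reached 5207 and 6237, against 226.3 and 210.6 in its wild type. The set1 deletion strain and its wild type also differ in marker genes, as labelled. MET17 (the MET15 locus) had 5.07 and 1.58 in the set1 deletion, against 3528 and 3514 in its wild type, and LYS2 had 1307 and 1567 in the set1 deletion, against 10.02 and 2.94 in its wild type. The experiments also differed in ways that the wild-type label does not give. LEU2 lay between 6823 and 7294 on the 4 arrays of the overexpression experiment and between 5.28 and 46.18 on the other 10. The a-cell receptor gene STE2 lay between 2939 and 3355 on the 4 arrays of the SET1 experiment and between 42.02 and 161.9 on the other 10, and the alpha-cell receptor gene STE3 went the other way, at 114.4 to 136.1 on the 4 and 2045 to 3283 on the 10. Median signals of the tested genes were 538.1 to 664.3 per array, and 98% to 99.9% of the tested genes exceeded the level of fission yeast probe sets on the same array. The 3'/5' ratio, a measure of RNA integrity and labelling averaged over control transcripts on the log2 scale, was 1.44 and 1.43 on the 2 overexpression arrays and 0.88 and 0.66 on those of its wild type. It was 1.33 on replicate 3 of the jhd2 deletion and 1.5 on replicate 3 of the jhd2 wild type, and 0.54 to 0.85 on the other 8 arrays. These are bulk RNA samples, in which fewer cells with a transcript and less of it per cell cannot be told apart.

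Every member was detected well above background in every group, and most varied little. The median standard deviation between replicate arrays was 0.12 on the log2 scale for the 30 members, against 0.20 for all tested genes. These medians are not matched for signal level. Most members were brighter than the median tested gene, and the dim members ARE2 and SUT1 had 0.42 and 0.39. The lowest of the 6 group means belonged to the overexpression strain for 14 members and to the overexpression wild type for 6, while the highest belonged to the SET1 wild type for 10 and to the set1 deletion for 8. Many neighbours in these orders lay closer than the replicate spread. The map of all 30 members by array shows the lower values as a block at the right, in both strains of the overexpression experiment.

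**Figure D1:**
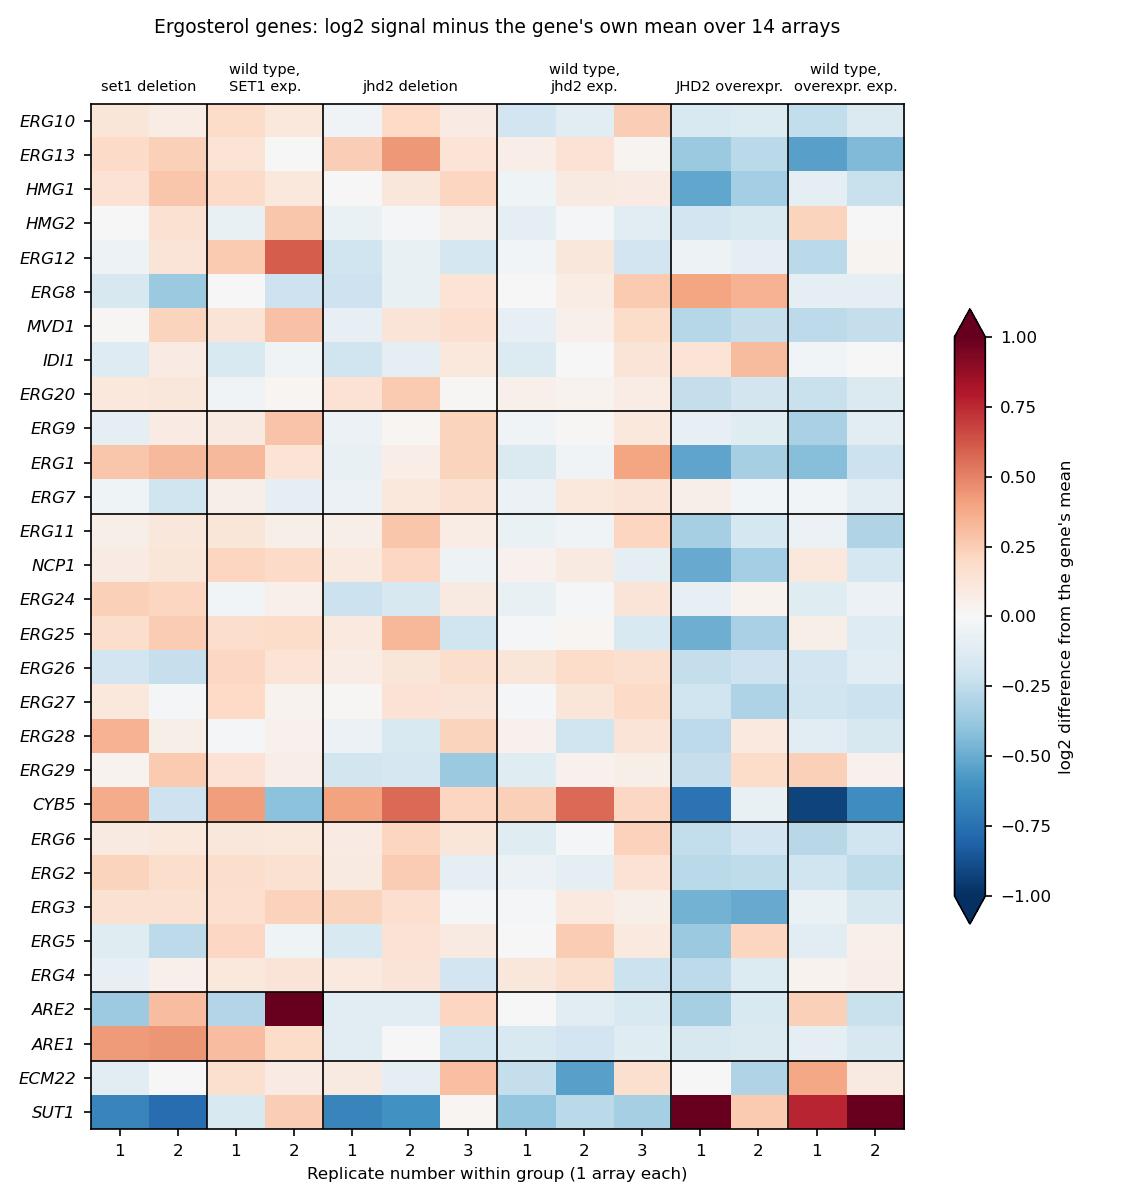
Log2 signal of each of the 30 ergosterol genes (rows, in pathway order; horizontal lines separate the mevalonate steps, squalene and lanosterol, lanosterol to zymosterol, zymosterol to ergosterol, esterification and transcription factors) on each of the 14 arrays (columns), as the difference from that gene's own mean over all arrays, with blue for lower and red for higher. The 4 arrays of the overexpression experiment at the right are mostly blue, with SUT1 red on all 4 and ERG8 and IDI1 red on the overexpression arrays, and SUT1, CYB5 and ARE2 vary more than the enzymes around them.

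Along the pathway, the 9 mevalonate genes come first. ERG10 (acetoacetyl-CoA thiolase) had group means spanning 0.35 on the log2 scale, and ERG13 (HMG-CoA synthase) spanned 0.77, from the overexpression wild type at the bottom to the jhd2 deletion at the top. The HMG-CoA reductases, whose step limits the rate of the pathway, spanned 0.64 for HMG1 and 0.28 for HMG2. ERG12 (mevalonate kinase) spanned 0.59 with the SET1 wild type highest, ERG8 (phosphomevalonate kinase) 0.64 with the overexpression strain highest, and MVD1 (mevalonate diphosphate decarboxylase) 0.47. IDI1 (isopentenyl diphosphate isomerase) spanned 0.32 and ERG20 (farnesyl diphosphate synthase) 0.35.

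Of the enzymes that build lanosterol, ERG9 (squalene synthase) spanned 0.40 and ERG1 (squalene epoxidase, the first oxygen-dependent step) 0.73, while ERG7 (lanosterol synthase) had the narrowest span of the 30, 0.19. Among the 9 genes from lanosterol to zymosterol, ERG11, the lanosterol demethylase inhibited by azole drugs, spanned 0.39, and NCP1, the reductase that passes electrons to it, 0.62. ERG24 (a sterol reductase) spanned 0.32. The demethylation complex comprises ERG25 (methyl sterol oxidase), ERG26 (the decarboxylase), ERG27 (the keto reductase) and the scaffold ERG28, which spanned 0.62, 0.40, 0.37 and 0.34 in that order. ERG29, a protein of the oxidase step, spanned 0.39. CYB5, the cytochrome that feeds electrons to several sterol-modifying enzymes, spanned 1.17.

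The last steps are carried out by ERG6 (sterol methyltransferase), ERG2 (the isomerase), ERG3 and ERG5 (desaturases) and ERG4 (the final reductase), which spanned 0.30 to 0.69, with ERG3 at the top. The sterol acyltransferases ARE1 and ARE2, which make sterol esters, spanned 0.59 and 0.64. Of the transcription factors, ECM22, an activator of ergosterol genes, spanned 0.44, and SUT1, a regulator of sterol uptake and of hypoxic genes, spanned 1.62, the widest of the 30. The spread between replicates differed among the members as well, from 0.04 for ERG26 to 0.42 for ARE2, with 0.39 for SUT1 and 0.34 for CYB5.

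No ergosterol gene was called in the set1 deletion strain, where the deletion and the marker differences at MET17 and LYS2 cannot be told apart. In the limma fit over all arrays, 0 of the 30 members had an adjusted p under 0.05 (Benjamini-Hochberg over all 5415 genes) in the set1 deletion against its wild type, where 0.259% of all tested genes did. At an unadjusted p under 0.05 there were 3 members, all lower in the set1 deletion (ERG26, ERG12 and SUT1), which is 10.0% of the members against 8.33% of all genes. No other way of fitting the data that was tried called a member here. Of the members, 12 had positive and 18 negative log2 changes, with a median of -0.04 against 0.02 for all genes and a range from -0.76 to 0.21. The 95% interval of the change lay within 0.5 of 0 on the log2 scale for 22 members and within 1 for 28. The arrays of both strains did not overlap for 5 members on the higher side and 10 on the lower side, which is to be read against 36.5% of all genes.

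SUT1 had the largest value, with 295.8 and 276.0 in the set1 deletion, against 421.1 and 555.5 in the SET1 wild type. Both deletion arrays lay below both wild-type arrays. The log2 change was -0.76 ± 0.34 (SE), and limma gave an adjusted p of 0.583. ERG12 gave 932.7 and 1055 in the set1 deletion, against 1163 and 1475 in the SET1 wild type, again without overlap (log2 change -0.40 ± 0.16, limma adjusted p = 0.462). ARE2 gave 130.6 and 207.9 in the deletion, against 136.6 and 356.1 in the wild type. These arrays overlapped, and the log2 change of -0.42 ± 0.37 depended on 1 wild-type array, since without replicate 2 of the SET1 wild type it was 0.27. ERG26, chosen after its values were seen because it had the smallest p of the members, gave 1755 and 1708 in the set1 deletion, against 2320 and 2212 in the SET1 wild type. The deletion arrays were the lower ones by a margin wider than the gap between replicates, and its log2 change was -0.39 ± 0.09 (95% interval -0.59 to -0.18), with a limma adjusted p of 0.164.

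The jhd2 deletion likewise came with no called change, and the values were small. Among the members, 0 members had an adjusted p under 0.05 in limma, against 0.0369% of all genes, and 0 had an unadjusted p under 0.05, against 1.83% of all genes. The lowest adjusted p among the members was 0.9997, and no alternative fit called a member, including the one with the replicate number as a block. Of the 30, 20 had positive and 10 negative log2 changes, with a median of 0.04 against -0.04 for all genes, and the range was -0.23 to 0.31. The intervals were the narrowest of the altered strains, within 0.5 of 0 for 25 members and within 1 for all 30. This comparison has 3 arrays a group, against 2 in the other experiments, so under the shared variance its standard errors are smaller by design. The groups failed to overlap for 1 member, ERG29, against 4.78% of all genes.

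The largest of these small values belonged to ECM22, ERG29 and ERG13. ECM22 had 408.4, 359.8 and 473.5 in the jhd2 deletion, against 326.1, 263.4 and 429.2 in the jhd2 wild type. The ranges overlapped, while the same-numbered arrays differed by 0.32, 0.45 and 0.14. The log2 change was 0.31 ± 0.18, and with the replicate number as a block its standard error was 0.10 (limma adjusted p = 0.876). ERG29 had 430.3, 436.9 and 379.0 in the deletion, against 450.3, 504.2 and 509.4 in the wild type, with all deletion arrays below all wild-type arrays by a narrow margin (-0.23 ± 0.14) and with differences of -0.07, -0.21 and -0.43 between same-numbered arrays. ERG13 had 4945, 5648 and 4591 in the deletion, against 4367, 4617 and 4246 in the wild type. It overlapped by 1 array (0.19 ± 0.09), and the same-numbered arrays differed by 0.18, 0.29 and 0.11. The limma adjusted p was 0.9997 for each of these 3 genes without the block.

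Overexpression of JHD2 also came with 0 called members in the limma fit over all arrays, where 0.517% of all genes were called. At an unadjusted p under 0.05 there was 1 member with a positive change, ERG8, and 3 with a negative one, NCP1, ERG25 and ERG3. This makes 13.3% of the members, against 19.4% of all genes. The members had 12 positive and 18 negative log2 changes, with a median of -0.03 against 0.00 for all genes and a range from -0.39 to 0.47. The 95% interval stayed within 0.5 of 0 for 17 members and within 1 for 28. Non-overlapping groups were found for 3 members on the higher side and 8 on the lower side, and for 63% of all genes.

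ERG8 had signals of 2500 and 2414 on the overexpression arrays, against 1773 and 1782 on those of the overexpression wild type. The overexpression arrays were also above each of the other 12 arrays, the highest of which was 2275. Its log2 change was 0.47 ± 0.14 (limma adjusted p = 0.131). NCP1 had 1840 and 2062 in the overexpression strain, against 2817 and 2318 in its wild type, with no overlap (-0.39 ± 0.13, adjusted p = 0.149). ECM22 had 385.2 and 311.8, against 501.0 and 408.8 in the wild type (-0.38 ± 0.22, adjusted p = 0.357). ERG3 and ERG25, named after their values were seen, showed the same order of groups. ERG3, a desaturase of the late pathway, had 2054 and 2006 in the overexpression strain, against 2729 and 2558 in its wild type, where the overexpression arrays were the lowest of all 14 (-0.38 ± 0.10, limma adjusted p = 0.113). ERG25, the oxygen-dependent methyl sterol oxidase, had 2720 and 3052, against 3980 and 3493 in the wild type (-0.37 ± 0.15, limma adjusted p = 0.212).

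**Figure D2:**
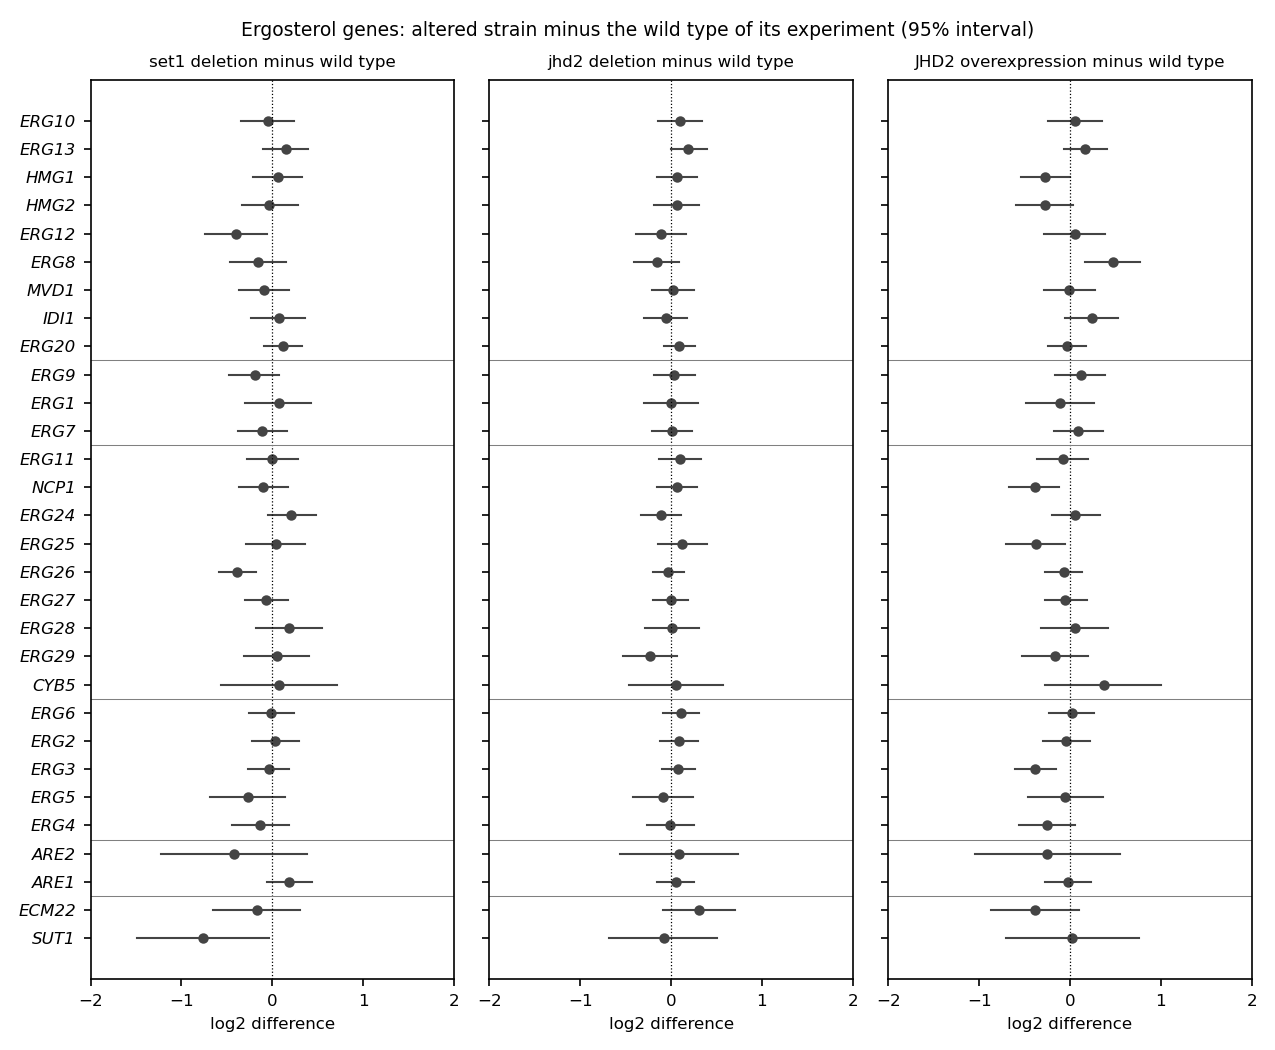
Log2 difference of each ergosterol gene (rows, in pathway order) between the altered strain and the wild type of its own experiment, with the 95% interval of the limma fit, for the set1 deletion, the jhd2 deletion and JHD2 overexpression. No gene was called in the fit over all arrays. The jhd2 deletion values lie closest to 0, between -0.23 and 0.31, and ERG8 at 0.47 has the largest positive value of the overexpression strain.

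Whether these overexpression values count as called depended on the fit. With array weights, which give noisier arrays less influence, limma called ERG8, NCP1, ERG3 and ERG25 (adjusted p = 0.00891, 0.0172, 0.00742 and 0.0244 in that order), with 1055 genes called in all. With only the 4 arrays of this experiment it called ERG8, ERG3 and ERG25 and 955 genes in all, and with quantile normalization it called ERG3 and 135 genes in all. When replicate 3 was dropped from the jhd2 deletion and its wild type, the same 4 genes were called as with array weights. This alternative was added after the data were seen, and its number of all genes called is not given here on its own. The 3'/5' ratio moved with the comparison, at 1.44 and 1.43 on the overexpression arrays and 0.88 and 0.66 on the wild-type arrays. With that ratio as a covariate the log2 changes were 0.27 for ERG8, -0.28 for NCP1, -0.32 for ERG3 and -0.18 for ERG25, and limma adjusted p-values were 0.424, 0.455, 0.283 and 0.726 in that order. For HMG1, also named after its values were seen, the change was -0.36 with the covariate and -0.27 without it. Within groups the ratio varied mainly through replicate 3 of the jhd2 wild type and deletion, at 1.5 and 1.33 against 0.54 to 0.6 on their other arrays. The covariate therefore cannot separate RNA integrity from whatever else set replicate 3 apart.

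The changes in the altered strains were also tested against each other. For the change in the set1 deletion minus that in the jhd2 deletion, limma called 0 members, and it called 0.0739% of all genes. ERG26 was the only member with an unadjusted p under 0.05 (difference -0.36 ± 0.12, adjusted p = 0.900), which is 3.33% of the members against 4.56% of all genes. For the overexpression change minus the jhd2 deletion change there were 0 called members, against 0.0923% of all genes, with 1 member higher (ERG8, 0.63 ± 0.18, adjusted p = 0.304) and 4 members lower (ERG3, NCP1, ERG25 and ECM22, from -0.46 to -0.69) at an unadjusted p under 0.05. These make 16.7% of the members, against 11.7% of all genes. Array weights turned these 5 into calls, among 870 genes called in all. For the set1 deletion change minus the overexpression change, 0 members were called, against 0.259% of all genes. At an unadjusted p under 0.05 ERG3 had a positive difference (0.34 ± 0.15), while ERG8 (-0.63 ± 0.20) and ERG26 (-0.31 ± 0.13) had negative ones, together 10.0% of the members against 12.7% of all genes. Each pair of these 3 tests shares the arrays of 1 experiment.

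In the fit over all arrays without weights or covariate, the ergosterol genes that were called differed between wild types, although these carry the same label. In the overexpression wild type against the jhd2 wild type, limma called 4 members. ERG13, ERG26 and CYB5 were lower and SUT1 was higher. This is to be read against 16.3% of all genes called, 5.5% lower and 10.7% higher, so the share of members called is near the background. Changes were negative for 22 members and positive for 8, with a median of -0.15 against 0.07 for all genes and a range from -1.11 to 1.21. At an unadjusted p under 0.05, 8 members were lower and 2 higher, which is 33.3% of the members against 32.6% of all genes (691 lower and 1072 higher). The groups did not overlap for 13 members on the lower side, against 22.9% of all genes, and for 2 on the higher side, with 54.6% of all genes not overlapping in either direction.

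ERG13, which makes HMG-CoA, had signals of 2860 and 3074 in the overexpression wild type, against 4367, 4617 and 4246 in the jhd2 wild type. All 3 jhd2 wild-type arrays were well above both others. Its mean signal was 2967 ± 151 (SD, n = 2) in the overexpression wild type and 4410 ± 190 (SD, n = 3) in the jhd2 wild type, and it fell by 0.57 ± 0.10 on the log2 scale (limma adjusted p = 0.00316). CYB5 had 642.6 and 793.4 in the overexpression wild type, against 1442, 1814 and 1409 in the jhd2 wild type. The groups were clearly apart, and the log2 change was -1.11 ± 0.27 (limma adjusted p = 0.0157). ERG26 had 1759 and 1860 in the overexpression wild type, against 2182, 2279 and 2244 in the jhd2 wild type, and the log2 change was -0.31 ± 0.09 (limma adjusted p = 0.0328). SUT1 had 795.9 and 933.3 in the overexpression wild type, against 358.9, 387.9 and 372.7 in the jhd2 wild type. Every overexpression wild-type array exceeded every jhd2 wild-type array, and SUT1 rose by 1.21 ± 0.31 on the log2 scale (limma adjusted p = 0.0210). These calls depended on single arrays. With either overexpression wild-type array left out, which leaves 1 array in that group, fewer members were called. Without replicate 2 of the jhd2 wild type, 2 members were called. The number of all genes called also moved between such fits, and its share in each is not given here. These counts are therefore not read as particular to the members.

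Against the SET1 wild type, 3 mevalonate genes were lower in the overexpression wild type, whose arrays this comparison shares with the one before. Limma called ERG13, ERG12 and MVD1 lower and 0 members higher, where 8.11% of all genes were called, 2.86% lower and 5.24% higher. Over both directions together the share of members called is again near the background, while all 3 called members were lower. Changes were negative for 24 members and positive for 6, with a median of -0.29 against 0.10 for all genes and a range from -0.78 to 0.83. At an unadjusted p under 0.05, 14 members were lower and 1, SUT1, was higher, which is 50% of the members against 27.2% of all genes (575 lower and 898 higher). The arrays did not overlap for 21 members on the lower side, against 22.1% of all genes, and for 2 on the higher side, with 56.4% of all genes not overlapping in either direction.

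ERG13 stood at 2860 and 3074 in the overexpression wild type, against 4586 and 4180 in the SET1 wild type, and the log2 change was -0.56 ± 0.11 (limma adjusted p = 0.0101). ERG12, mevalonate kinase, stood at 800.7 and 985.9, against 1163 and 1475 in the SET1 wild type, with a log2 change of -0.56 ± 0.16 (limma adjusted p = 0.0482). For ERG12 the SET1 wild type was the group set apart, with a mean of 1319 against 873.6 to 994.1 in all other groups. MVD1 stood at 2133 and 2169, against 2799 and 3127 in the SET1 wild type (-0.46 ± 0.13, limma adjusted p = 0.0466). In all 3 genes the overexpression wild type lay wholly below the SET1 wild type. The calls of ERG12 and MVD1 were close to the threshold. Without replicate 1 of the overexpression wild type 0 members were called, as with only the arrays compared, and 1 was called without most other single arrays. Without replicate 3 of the jhd2 deletion or of the jhd2 wild type, arrays outside the comparison that enter through the shared variance, 8 were called. The number of all genes called also moved on leaving out single arrays. These counts therefore do not show a change particular to the members. Other members had values of similar size that were not called, such as ERG1 (-0.56 ± 0.17, limma adjusted p = 0.0627) and ERG9 (-0.40 ± 0.13, limma adjusted p = 0.0682), both named after their values were seen. Scaling mattered for the members as a group. With quantile normalization their median was -0.12 against the jhd2 wild type, with -0.06 for all genes, and -0.17 against the SET1 wild type, with -0.03 for all genes, so the gap between members and all genes was smaller than without it. Median centring gave -0.28 with -0.06 for all genes, and -0.47 with -0.08 for all genes, which left the gap as it was.

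In the SET1 wild type against the jhd2 wild type, 0 members were called by limma, against 0.388% of all genes, and 2 had an unadjusted p under 0.05, both higher in the SET1 wild type, which is 6.67% of the members against 13.5% of all genes. These were ERG12 (0.47 ± 0.14, adjusted p = 0.213) and the acyltransferase gene ARE1 (0.40 ± 0.11, adjusted p = 0.161). Changes were positive for 22 members and negative for 8, with a median of 0.11 against 0.00 for all genes. The arrays did not overlap for 9 members on the higher and 2 on the lower side, against 26% of all genes. ARE1 was high on all 4 arrays of the SET1 experiment, with 1034 and 1048 in the set1 deletion and 953.2 and 874.6 in the SET1 wild type. It lay between 669.9 and 766.7 on the other 10 arrays.

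**Figure D3:**
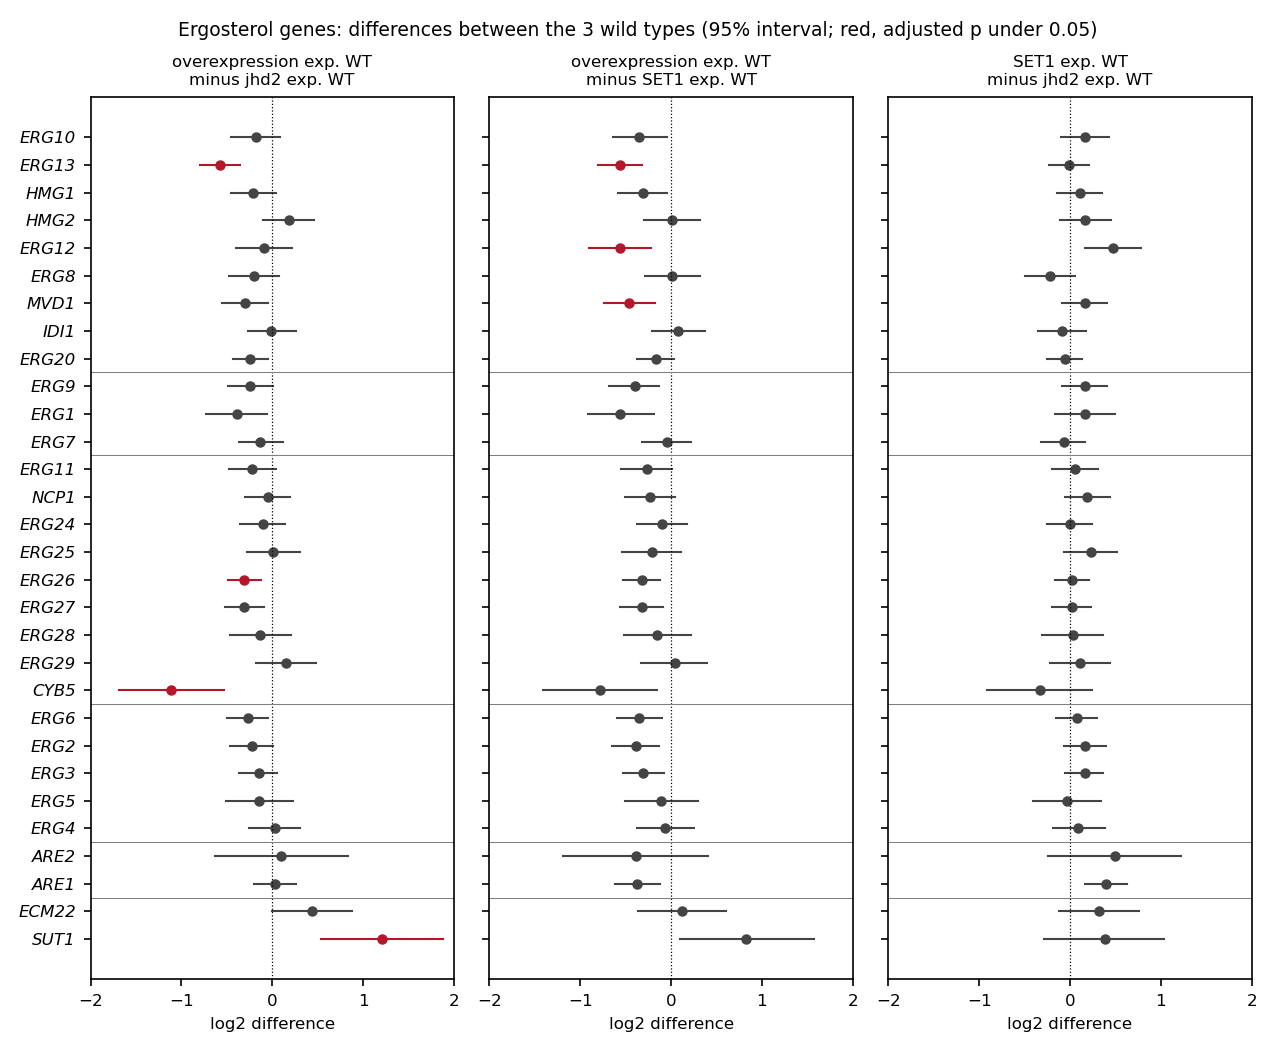
Log2 difference of each ergosterol gene (rows, in pathway order) between pairs of wild types, with the 95% interval of the limma fit; red marks an adjusted p under 0.05. ERG13 is lower in the overexpression wild type in both panels that hold it, CYB5 at -1.11 and SUT1 at 1.21 are the extremes, and no gene is red in the SET1 wild type against the jhd2 wild type.

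On the signals as deposited, the shift was shared by both strains of the overexpression experiment. For 9 members all 4 of its arrays, overexpression strain and wild type together, lay below all 10 arrays of the other experiments, as did 7.15% of all tested genes. These were ERG13, HMG1, MVD1 and ERG20 of the mevalonate steps, ERG1 of the squalene steps, ERG27 of the demethylation complex, and ERG6, ERG2 and ERG3 of the late steps. All 9 were brighter than the median tested gene, which had 538.1 to 664.3 per array. The dimmest, HMG1, had 758.2 to 1320. The 7.15% covers genes of every signal level, and whether other bright genes lay lower on these arrays was not tested. ERG20, which makes farnesyl diphosphate, ranged from 4024 to 4289 on the 4 overexpression-experiment arrays and from 4636 to 5698 on the other 10. ERG6 ranged from 3926 to 4166 on the 4 and from 4383 to 5598 on the 10, and ERG2 from 3870 to 4075 on the 4 and from 4353 to 5577 on the 10. SUT1 was the 1 member for which the 4 arrays lay above the other 10, at 563.1 to 1363 against 276.0 to 555.5, as did 9.86% of all genes. Its 2 overexpression-strain arrays were far apart, at 1363 and 563.1.

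**Figure D4:**
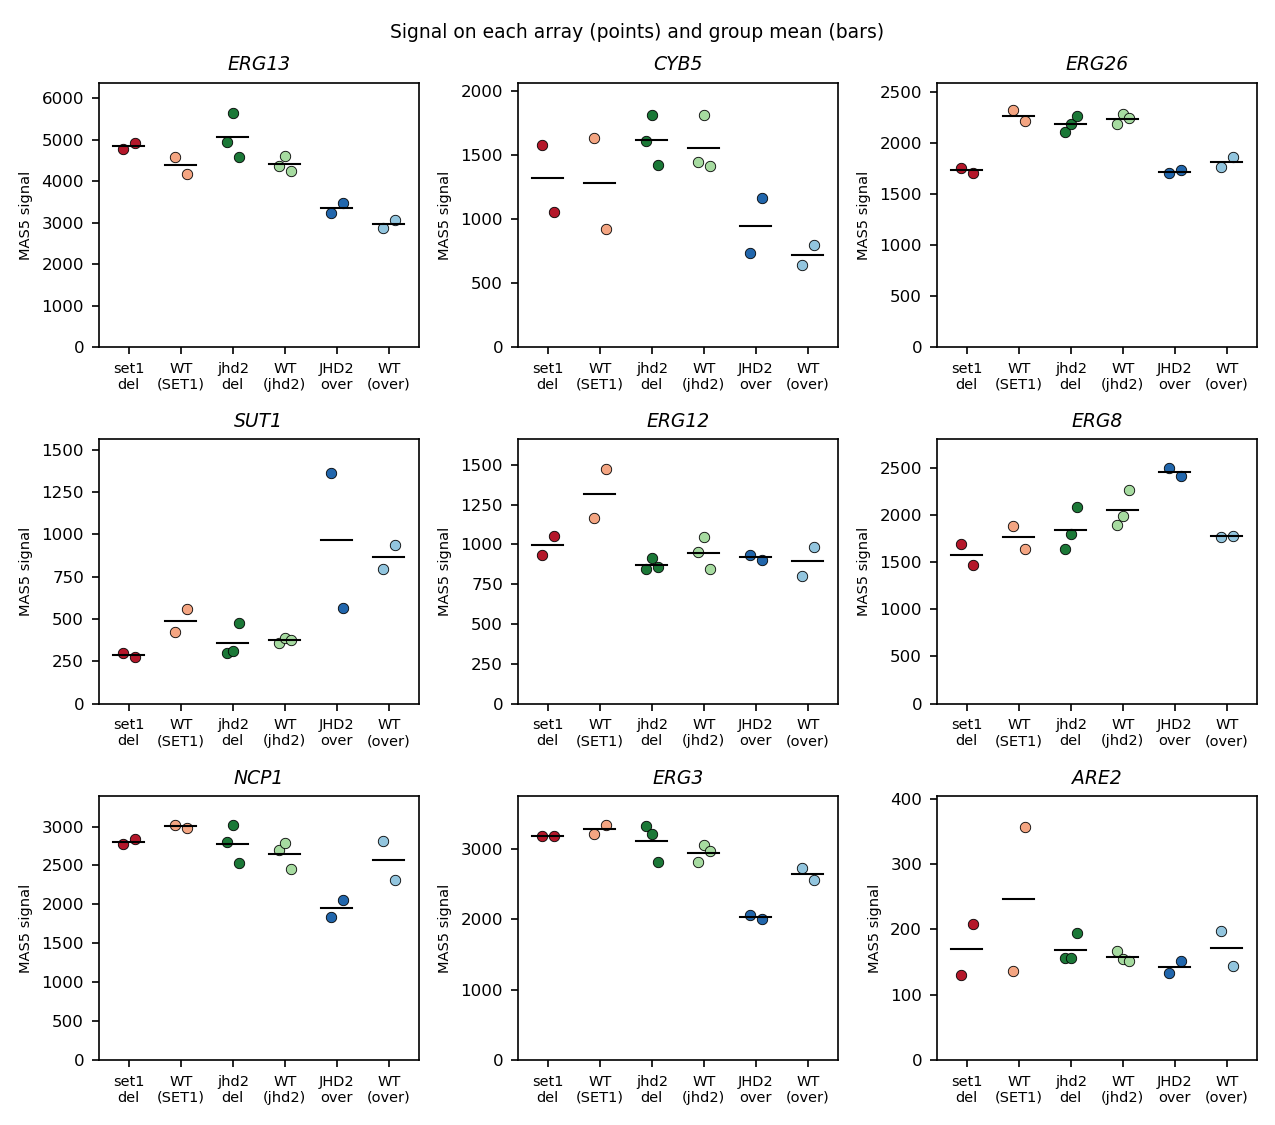
Signal on each array (points) and group mean (bars) for 9 ergosterol genes in the 6 groups; each altered strain stands left of its wild type, and WT (SET1), WT (jhd2) and WT (over) are the wild types of the 3 experiments. ERG13 is low and SUT1 high in both groups of the overexpression experiment, CYB5 is lowest in the overexpression wild type, ERG8 is highest in the overexpression strain, and 1 SET1 wild-type array sets the high mean of ARE2.

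Per array, the median deviation of the 30 members from their own means was -0.24 and -0.15 on the log2 scale in the overexpression strain and -0.10 and -0.15 in the overexpression wild type. It lay between -0.04 and 0.14 on the other 10 arrays. The median over all tested genes stayed between -0.07 and 0.09, with 0.03 to 0.09 on the overexpression-experiment arrays, where the members were lowest. These medians and the separation above were taken without quantile normalization and were not repeated with it. Between wild types, the gap between members and all genes was smaller with quantile normalization and unchanged with median centring. The pooled standard deviation of the members' median between replicate arrays was 0.07. Of the 30 members, 25 and 23 were below their own mean on the overexpression arrays and 22 and 23 on those of the overexpression wild type. With the 3'/5' ratio as a covariate, 8 members were called between the overexpression and the jhd2 wild types, and 11 between the overexpression and the SET1 wild types, all 11 lower. All genes called in these fits numbered 1364 with the covariate and 880 without it against the jhd2 wild type, and 894 with it and 439 without it against the SET1 wild type. With the covariate, the share of members called was thus near that of all genes against the jhd2 wild type and above it against the SET1 wild type. Strain background, mating type in the SET1 comparisons, the LEU2 state and whatever else set the experiments apart cannot be told apart in these wild-type differences.

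**Figure D5:**
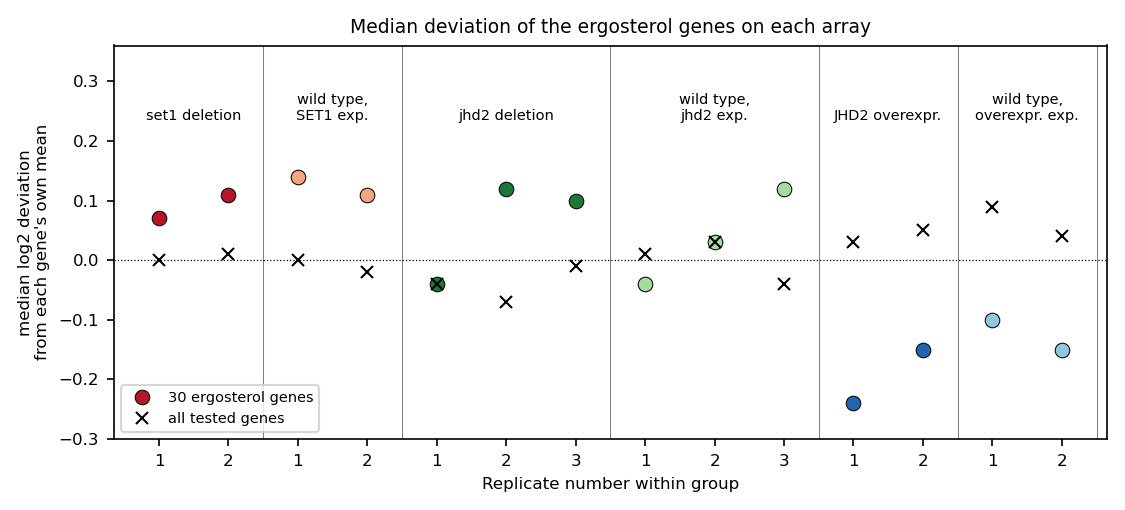
Median log2 deviation of the 30 ergosterol genes (filled points) and of all tested genes (crosses) from each gene's own mean, on each array by group. The signals are as deposited, without quantile normalization. The 4 arrays of the overexpression experiment lie between -0.24 and -0.10 for the ergosterol genes, below the other 10, while all tested genes stay between -0.07 and 0.09.

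Genes around the pathway were followed in 4 related lists, with 16 sterol and hypoxic regulators, 24 genes of sterol uptake, ester turnover and transport, 8 of heme synthesis and 11 of other branches that use isoprenoids. None of the 59 was called by limma in the set1 deletion, the jhd2 deletion or the overexpression strain. At an unadjusted p under 0.05, 2 were in the set1 deletion, 0 in the jhd2 deletion and 10 in the overexpression strain, which is 3.39%, 0% and 16.9% of them, against 8.33%, 1.83% and 19.4% of all genes. The heme synthesis gene HEM3 came closest, with 205.5 and 223.6 in the overexpression strain, against 87.22 and 72.56 in its wild type (1.43 ± 0.29, limma adjusted p = 0.0580). In the set1 deletion SRT1, a prenyltransferase of dolichol synthesis, had the smallest p, with 91.59 and 109.1, against 51.01 and 29.81 in the SET1 wild type (1.36 ± 0.36, limma adjusted p = 0.216).

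Between wild types, calls in these lists went in both directions. In the overexpression wild type 7 of the 59 were called against the jhd2 wild type, where 16.3% of all genes were, and 4 against the SET1 wild type, where 8.11% of all genes were, so neither count is above the background. HEM3 had 87.22 and 72.56 in the overexpression wild type, against 262.0, 243.9 and 277.3 in the jhd2 wild type, and the log2 change was -1.71 ± 0.27 (limma adjusted p = 0.00141). HEM13, the oxygen-dependent coproporphyrinogen oxidase of heme synthesis, was lower too (-0.86 ± 0.24, limma adjusted p = 0.0316). Lower calls in the same comparison were made for NSG1 (-0.50), which stabilises HMG-CoA reductase, ATF2 (-0.97), a sterol acetyltransferase, and DAN1 (-1.19), a cell wall mannoprotein of anaerobic growth whose signals were 10.46 and 9.53 in the overexpression wild type, where only 1 of the 2 arrays was above background, so that the size of its change is uncertain. Higher calls were made for the sterol transporters LAM4 (0.90 ± 0.19, limma adjusted p = 0.00849) and NCR1 (0.80 ± 0.16, limma adjusted p = 0.00666). Against the SET1 wild type, the overexpression wild type had LAM4 (1.17) and NCR1 (0.70) higher and NSG1 (-0.68) and UBC7 (-0.42), a ubiquitin-conjugating enzyme that acts in the turnover of Hmg2, lower, all called by limma. In the SET1 wild type against the jhd2 wild type, 0 of the 59 were called by limma and 4 had an unadjusted p under 0.05, which is 6.78% of them against 13.5% of all genes.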

How the data were processed

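The authors deposited 1 linear intensity per probe set and array, computed with MAS5 per the submitters' processing notes, of which neither the version nor the scaling target is stated in what was used here. A mean trimmed by 2% on both sides came to 499.8 on every array. Of 10928 probe sets, 5498 matched 1 S. cerevisiae gene (5449 genes), 1746 fission yeast, 1 several genes, and 3683 were unnamed in the annotation used. For 47 genes with several probe sets the brightest was used. Genes were tested if their mean log2 signal exceeded the 95th percentile of fission yeast probe sets (34 did not). The background of an array was the same percentile on that array, 7.28 to 16.65.

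Signals under 1 were set to 1 and put on the log2 scale. Using limma 3.58.1 under R 4.3.3, 6 group means were fitted over the 14 arrays together, with a trend of variance on intensity (8 residual and 4.12 prior degrees of freedom) and two-sided tests, with Benjamini-Hochberg adjustment over all 5415 genes per comparison and calls at an adjusted p under 0.05. Standard errors are those of the model. The number of arrays limits the precision. The fit was tested on simulated data. Nothing shows that the replicates came from separate days, so p-values measure the spread between these arrays. That spread is pooled over the 6 groups and also holds differences that same-numbered arrays of an experiment share.

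The members and related lists were chosen with earlier results of these data known. All 30 members were to be named, with every array's value for those called in any comparison and, per altered strain, for the 3 largest changes, and of each related list up to 4 called genes or otherwise the 2 with the smallest p. The replicate numbers come from the labels. Arrays with the same number were compared as differences from the group mean across genes, which are not independent. They correlated at 0.64, 0.62 and 0.69 in the jhd2 deletion experiment, at 0.73 in the SET1 experiment and at -0.14 in the overexpression experiment. The main fit had no replicate block, so its standard errors and p-values do not use this pairing. The block was used only as an alternative. Alternatives were quantile normalization, median centring, no filter, log2(signal + 32), no trend, array weights, the mean of probe sets, a replicate block, only the arrays compared and leaving out each array. A 3'/5' covariate, leaving out both replicate 3 arrays and a crossed block were added after the data were seen.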

Additional observations from a re-analysis of the deposited data

How the results depend on the processing

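No member was called in the set1 deletion, in the jhd2 deletion or in the set1 minus jhd2 deletion difference under any alternative, the replicate block included. In the overexpression strain against its wild type the count was 0, against 1 with quantile normalization, 4 with array weights, 3 with only the arrays compared, 4 without both replicate 3 arrays and 4 with a replicate block (NCP1, ERG3, ERG8 and CYB5), a block whose numbers do not pair the arrays there. Crossing the numbers in that block gave 4. For the overexpression minus jhd2 deletion difference the count was 0, against 5 with array weights, 2 with the replicate block, 3 without both replicate 3 arrays and 3 with the crossed block. For the set1 deletion minus overexpression difference it was 0, against 1 with each of the last 3. Except with array weights, all genes called for these differences are not counted here. These counts therefore do not show a change particular to the members. All genes called in the overexpression strain numbered 28, against 135 to 1175 under these alternatives. For the overexpression against the jhd2 wild type 4 members were called, against 7 with array weights, 8 with the 3'/5' covariate and 0 to 6 on leaving out single arrays (all genes: 880, against 1773, 1364 and 257 to 1061). For the overexpression against the SET1 wild type 3 were called, against 12 with median centring, 11 with the covariate, 12 without both replicate 3 arrays, 1 without the intensity trend, 0 with only the arrays compared and 0 to 8 on leaving out single arrays (all genes: 439, against 503, 894, 1155, 380, 154 and 124 to 658). For the SET1 against the jhd2 wild type the count was 0, and 0 to 1 on leaving out single arrays (all genes: 21, against 17 to 224). Centring on the median shifted all genes by -0.13 and -0.18 in the comparisons of the overexpression wild type with the jhd2 and the SET1 wild types, where the members' median became -0.28 and -0.47, and quantile normalization shifted all genes by -0.12 and -0.13. The log2 change of ARE2 in the set1 deletion ranged from -1.11 to 0.27 on leaving out single arrays, the 0.27 without replicate 2 of the SET1 wild type. It was the only direction among the named changes to turn, and of the 396 values of named members under alternatives, 49 lost and 9 gained a call. Few arrays limit what can be called. Of simulated log2 changes of 0.5 among 5415 genes, 16% were called in the set1 deletion comparison, 31.6% in the jhd2 deletion comparison and 17.4% in the overexpression comparison. The simulation changed 200 genes drawn from all tested genes. Their median replicate standard deviation was 0.2 over all tested genes, against 0.12 for the members, so these rates are not those of the members. The causes were not tested.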
